A study of Mus musculus with 4 samples.

Results

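Many rows of a mouse m6A peak list carry gene names that say nothing about function: a Gm number, given to a gene model that was first predicted by computer, or a name ending in Rik, given to a cDNA from the RIKEN full-length collection. The peaks described here are those assigned to such names, chosen by spelling alone (Gm followed only by digits, or an ending in Rik) and not by any measured value. The list for WT macrophages held 2656 of them among 16709 peaks (15.9%) and the list for KO macrophages 3343 among 21031 (15.9%). They fell on 1895 of 9875 named genes in WT and on 2296 of 11675 in KO, and Gm names gave 2041 of the WT and 2632 of the KO peaks.

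Macrophages were grown from C57BL/6 bone marrow with M-CSF, the macrophage growth factor, for 7 days. WT cells carried the genotype Mettl3fl/fl, and KO cells LysM-cre, Mettl3fl/fl, so the floxed alleles were present in both genotypes and KO cells had Cre as well, expressed in myeloid cells from the lysozyme 2 locus. For each genotype 1 library was made from fragmented poly(A) RNA precipitated with an antibody against m6A (IP) and 1 from RNA that was not precipitated (input), 4 libraries in all, and the age of the mice and any pooling of animals are not given in the sources used here. No difference between the genotypes has a replicate check, and library depth is unknown. Every interval of a share is an exact 95% binomial interval that covers counting error only and takes peaks or genes as independent. The interval of the median input difference is an order-statistic interval over genes. Mettl3 itself had no input level among those analysed here, and the genotype was therefore not checked on its target. Input levels were listed only for genes with a differential peak, so a marker without a level is not thereby absent. They were listed for 6 of 9 macrophage markers, from Fcgr1 (40.6 FPKM in WT and 58.4 in KO) to Lyz2 (10533 and 6615). Lyz2 is also the locus from which KO cells expressed Cre, and the part of that in its level was not tested. FPKM is a count of fragments set against the length of the transcript and the depth of the library. Of 6 neutrophil markers 2 had a listed level and were lower in KO, S100a8 at 77.7 and 46.4 FPKM and S100a9 at 155 and 90.2, and the part of such cells in the values below was not tested.

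N6-methyladenosine (m6A) is laid down in the nucleus by a complex whose catalytic subunit is METTL3, mostly at adenosines in GGAC and related motifs, and in messenger RNAs it gathers near the stop codon and in the 3′ UTR, where reader proteins act on decay and translation. Long noncoding RNAs such as Xist, Neat1 and Norad carry it too. The genes behind Gm and Rik names are a mixture of protein-coding genes, long noncoding RNAs, pseudogenes and small RNAs, and many lie inside, or against, a protein-coding gene. A peak in such a place can carry the name of either gene.

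The GGACT motif could be read only at transcript starts, in promoter sequences credited to RefSeq (build GRCm38.p6). The lines show windows of 30 bases around GGACT, in capitals, at the starts of 3 of these genes whose first 50 transcribed bases lay wholly under a peak of their own that was shared by both genotypes in the WT list. 5730409E04Rik is protein-coding (chromosome 4 from 126609854 to 126609883, plus strand, motif 4 bases from the start), and A830005F24Rik (chromosome 13 from 48513588 to 48513617, plus strand, motif at base 31) and 1500002C15Rik (chromosome 4 from 155734393 to 155734422, minus strand, motif at base 35) are long noncoding RNAs.
5730409E04Rik: gctGGACTccgcagcccgggctggggctag
A830005F24Rik: cctagcactgccGGACTctttcattgactg
1500002C15Rik: gtcagaggaaccagGGACTaatgactacat
The authors' fold enrichment of IP over input at these sites was 3.87 in the WT list and 4.33 in the KO list for 5730409E04Rik, 14.3 and 15.3 for A830005F24Rik, and 7.14 in WT for 1500002C15Rik. The authors' p in WT was 2.5e-19, 0.00043 and 0.033 in that order. For 1500002C15Rik the authors' false discovery rate was 0.571, so its peak was a weak call. GGACT lay in the first 50 transcribed bases of 5 of 94 such starts in WT (5.32%, interval 1.75 to 12%) and 2 of 74 in KO (2.70%, interval 0.329 to 9.42%), against 5.42% of the promoters of all predicted and Rik genes and 5.76% of all promoters. On the other strand, 4.87% of all promoters held it. A match is a description of letters in this window and not a mapped site.

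Among the peaks of these genes, those over RefSeq microRNA hairpins were few. They concern 2 hairpins, under peaks named Gm26083 and Gm4149, and both were singled out after their values were seen. The mature sequences from RefSeq follow, with the seed (bases 2 to 8) in capitals. No whole seed is shared among them, but those of mmu-miR-6516-5p and mmu-miR-682 both hold the run UGCAGU.
mmu-miR-6516-5p: uUUGCAGUaacagguguggaca
mmu-miR-6516-3p: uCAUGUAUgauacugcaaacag
mmu-miR-682: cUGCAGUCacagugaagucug
The Mir6516 hairpin on chromosome 11 had 88 of its 110 bases under the WT peak of Gm26083 (117077242 to 117077435, 8.16-fold) and 3 under the KO peak (117077171 to 117077350, 2.54-fold). The authors' p was 0.018 for this WT peak and 0.00036 for the KO peak. The pair of 8.16 and 0.018 was listed for 97 WT peaks of predicted and Rik genes, so the higher fold is not the stronger call. All 96 bases of the Mir682 hairpin on chromosome 13 lay under the WT peak of the pseudogene Gm4149 (75644895 to 75645171, 2.04-fold) and 71 under its KO peak (75644895 to 75645116, 1.34-fold). Here the authors' p was 4.1e-07 in WT and 0.0024 in KO. These are peaks on longer poly(A) RNA that covers the hairpin, and the mature microRNAs were not measured.

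What kind of genes carried the names was read from RefSeq by symbol or by an unambiguous synonym. Of the 1895 WT genes 1022 (53.9%) were found there, and of the 2296 KO genes 1182 (51.5%). By peaks, WT held 534 in long noncoding RNAs, 475 in pseudogenes, 310 in protein-coding genes, 83 in small RNAs and 4 in other types, with 1250 under names not matched. KO held 592, 597, 374, 121 and 6 in the same order, with 1653 not matched. Most genes had a single peak: 72.0% in WT and 69.3% in KO, against 54.2% and 50.4% of genes with other names.

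The authors' annotation placed fewer of these peaks in UTRs than peaks of other names. In WT 1216 of 2656 (45.8%, interval 43.9 to 47.7%) were in a 3′ UTR against 62.2% of the others, 92 (3.46%) in a 5′ UTR against 14.8%, and 1348 (50.8%) in another exon against 23%. KO showed the same order, with 53.0% against 66.2% in a 3′ UTR, 2.48% against 11.7% in a 5′ UTR and 44.5% against 22.1% in another exon. The 3′ UTR label followed gene type: it was on 63.9% of the WT peaks of coding genes, 25.3% of those of long noncoding RNAs and 36.0% of those of pseudogenes, yet on 78.3% of those of small RNAs, which have no UTR of their own. For an exon peak the annotation names the exon's gene, and in 328 of 1348 WT peaks (24.3%) and 386 of 1487 KO peaks (26%) it was a gene other than the assigned one, against 14.5% and 13.8% of exon peaks with other names.

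Position was then set against gene extents. A peak was counted as lying in its own gene where its exonic blocks touched the assigned transcript or the RefSeq extent of that name, or where the annotation named an exon of it, and in another coding gene where they touched the RefSeq extent of a protein-coding gene of another name, introns included and strand ignored. In WT, 1127 of the 2656 peaks (42.4%, interval 40.5 to 44.3%) lay in another coding gene and not in the gene they were named for, 706 (26.6%) in both, 778 (29.3%) in their own gene only and 45 (1.69%) in neither. In KO these were 1604 of 3343 (48.0%, interval 46.3 to 49.7%), 821 (24.6%), 841 (25.2%) and 77 (2.30%). Among peaks with other names only 11.7% in WT and 13.7% in KO lay in another coding gene alone, and 77.6% and 76.0% in their own gene alone. The KO list is the longer one, and for other names the peaks in another coding gene alone numbered 1649 in WT and 2421 in KO.

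**Figure D1:**
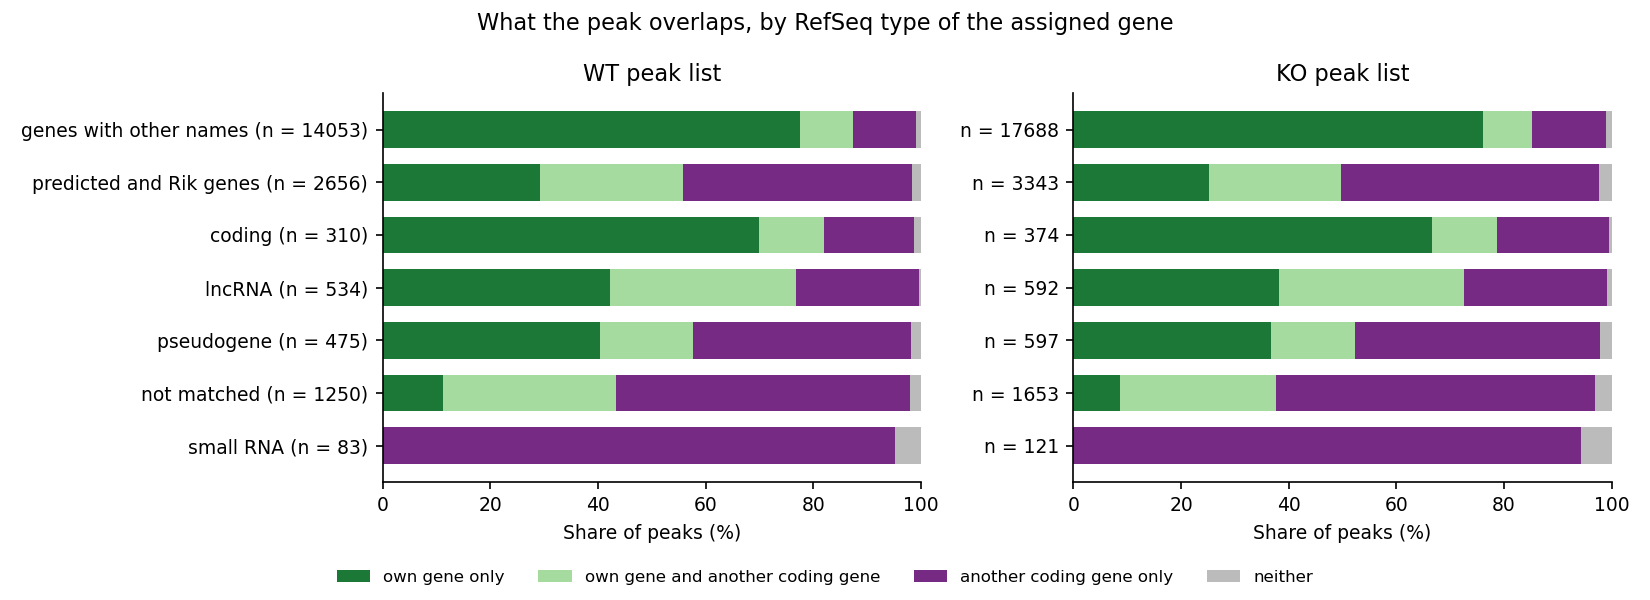
Share of peaks (horizontal axis, percent) that overlap their own gene, another protein-coding gene, both or neither, in the WT list (left) and the KO list (right), for genes with other names, for predicted and Rik genes together and for their RefSeq types, with the number of peaks (n). The purple share, peaks in another coding gene only, runs from 16.8% (WT) and 20.9% (KO) in coding genes to 95.2% and 94.2% in small RNAs.

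These classes differed by gene type, as the plot of overlap by type shows. Of the peaks named for small RNAs, 79 of 83 in WT (95.2%) and 114 of 121 in KO (94.2%) lay in another coding gene only and none in the small RNA alone. Those WT peaks had a median exonic length of 509 bases and the assigned small RNA a median span of 113. Names not matched in RefSeq came next, with 54.6% and 59.3% in another coding gene only, then pseudogenes with 40.4% and 45.6%, long noncoding RNAs with 22.8% and 26.7%, and coding genes with 16.8% and 20.9%. An unmatched name has only its transcript's extent to be found in, so its share is not on the same footing. Gm names stood at 49.2% and 54.7% and Rik names at 19.8% and 23.1%. Peaks in another coding gene only lay a median of 7365 bases (WT) and 7895 bases (KO) from the start they were assigned to, and 77.8% and 83% of them were annotated to a 3′ UTR. Of all peaks of these genes annotated to a 3′ UTR, 72.1% in WT and 75.1% in KO were of this kind.

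Of these peaks, 1066 of the 1127 in WT and 1483 of the 1604 in KO touched exactly 1 coding gene. Only those peaks were used to count coding genes, and the genes under them numbered 789 in WT and 1042 in KO. For 416 of the 789 in WT (52.7%, interval 49.2 to 56.3%), the list had no peak under the coding gene's RefSeq symbol. In KO this held for 548 of the 1042 (52.6%, interval 49.5 to 55.7%). Symbols were matched exactly and not by synonym, so a coding gene listed under another symbol was counted as having none. The same share was not taken for peaks with other names. Of the union of 1200 coding genes, 631 were found this way in both lists. In WT the most peaks, 6 each, lay in Adnp (a homeobox chromatin protein), Ddx6 (an RNA helicase of P-bodies), Hivep2 (a zinc finger transcription factor), Ston2 (the endocytic adaptor stonin 2) and Gm4070, itself a predicted gene. In KO, Setd1a (a histone H3 lysine 4 methyltransferase) held 7, and Ston2 and Slc8a1 (the sodium-calcium exchanger NCX1) 6 each.

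Gm47804 had 6 peaks in each list, all in Ston2, with a median fold of 5.10 in WT and 4.30 in KO, and 4 of the 6 were shared in each direction. All 5 peaks of Gm47234 in each list lay in Ddx6 and were shared. The 6 WT peaks of Gm24561 lay in Adnp, with folds from 1.63 to 20.1, and all were shared. Gm49388 had 5 peaks in WT and 10 in KO, every one annotated to an exon of Setd1a, with folds up to 8.59 in WT and 4.23 in KO. In KO, Gm38182 took 22 rows over 1 stretch of the gamma-protocadherin cluster, many of them identical, with folds from 1.77 to 1.81, and no row overlapped a WT peak. Without those 22 rows 59.4% of KO peaks were shared with WT, in place of 59.0%.

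Noncoding RNAs with known roles were also found under predicted names. Peaks named Gm27505 and Gm27533 were annotated to exons of Neat1, the scaffold RNA of paraspeckles, 6 in each list and with folds up to 6.26 in WT and 5.44 in KO. Tug1 had 7 such peaks in WT and 5 in KO under names including Gm27517 and Gm27624. Xist, the RNA of X inactivation, had 5 in WT and 3 in KO under Gm27733 and Gm27927. The strongest of these, Gm27733 on chromosome X from 103460365 to 103461355 (build mm10), had a fold of 54.1 in WT and 31.9 in KO, while the input level listed for Gm27733 itself was 0.000454 FPKM in WT and 0.000418 in KO.

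The strongest peaks were ranked by the authors' p, which was listed as 0 for all those named next, so that ties went by fold. Gm8995, which is on the list of interferon-inducible GTPase genes used below and is typed as a miscellaneous RNA in RefSeq, led the WT list with a fold of 134 on chromosome 7 from 106504238 to 106507728, and the KO peak over the same bases had a fold of 69.1. 1810013L24Rik, a protein-coding gene, had folds of 125 in WT and 69.3 in KO over 8830099 to 8843436 on chromosome 16, annotated to a 3′ UTR. 2900097C17Rik had folds of 97.8 in WT and 34.9 in KO on chromosome 2. RefSeq gives this name as a synonym of both Norad, the long noncoding RNA that binds Pumilio proteins, and Bscl2, and the peaks lay at the place of Norad. 2610507I01Rik, a long noncoding RNA on chromosome 11, had folds of 68.8 and 61.5. All of these lay in their own gene and were shared, and folds of separate lists are not compared as a change.

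Of the strongest peaks that lay in another coding gene only, that of 3300005D01Rik lay in the extent of Zdhhc14, a protein palmitoyltransferase. It was on chromosome 17 from 5712426 to 5753811, with folds of 48.2 in WT and 56.7 in KO. The peak of Gm29050 lay in Arid1b, a subunit of the BAF chromatin remodelling complex, with folds of 40.4 and 28.3. The peak of Gm25694 lay in Syne1, which codes for the nuclear envelope protein nesprin-1, with a WT fold of 48.0. That of Gm15513 was annotated to an exon of Zfyve28, with a WT fold of 42.4. In KO, the peak of Gm22606, a small nuclear RNA gene, lay in Itga4, integrin alpha 4, with a fold of 33.0. That of Gm49027 lay in Vps33a, a subunit of endosomal tethering complexes, with a fold of 22.5. Extents included introns and strand was ignored, so which RNA carried each peak was not tested. Each of these peaks overlapped a peak of the other genotype. D630008O14Rik, chosen after its values were seen, had peaks that lay both in its own transcript and in Bcl2, the inhibitor of apoptosis, with folds of 23.5 and 9.18 in WT and 10.8 and 16.5 in KO.

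Within a list these peaks had higher folds and weaker p-values than peaks of other names. The median fold was 5.10 against 3.57 in WT and 4.13 against 3.00 in KO. A p of at most 1e-10 was listed for 25.9% against 31.7% in WT and 20.9% against 25.1% in KO, and a false discovery rate (FDR) under 0.05 for 66.5% against 70.9% and 59.9% against 65.8%. Fold differed by position: the median was 7.14 in WT and 7.08 in KO for peaks in their own gene only, and 3.54 and 2.93 for those in another coding gene only. The commonest single pair of values was a fold of 7.14 with a p of 0.033 in WT, on 116 of these peaks (4.37%, against 2.65% of the others), and a fold of 7.08 with a p of 0.039 in KO, on 202 (6.04%, against 3.30%). Of the 116, 38 were shared with KO, and of the 202, 49 with WT. Peaks also stacked: 22.1% in WT and 19.8% in KO overlapped another peak of the same list, against 12.5% and 11.1% of peaks with other names.

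Sharing between the genotypes was counted as an overlap of at least 1 exonic base with any peak of the other list. In WT 1869 of 2656 peaks (70.4%, interval 68.6 to 72.1%) were shared, against 73.4% of all WT peaks and 73.9% of those with other names. In KO 1972 of 3343 (59.0%, interval 57.3 to 60.7%) were, against 61.6% of all KO peaks and 62.0% of those with other names. The level of sharing depended on the threshold: at a p of at most 1e-10 it was 98.1% in WT and 94.1% in KO, and with at least 50% of each peak overlapped it was 49.3% and 39.8%. The partner had the same name for 91.7% of the shared WT peaks and 89.7% of the shared KO peaks, against 97.1% and 96.7% for other names, and for 6.10% and 7.66% of them no partner carried a Gm or Rik name at all.

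Counted by gene, the lists differed more. Of the 2777 predicted and Rik genes named in either list, 1414 (50.9%, interval 49 to 52.8%) were in both, 481 (17.3%) in WT only and 882 (31.8%) in KO only. Of the 10258 genes with other names, 69.2% were in both, 8.57% in WT only and 22.2% in KO only. In 1295 of the 1414 a site was shared under the same name. The shares by gene were not compared at equal numbers of peaks per gene, and predicted and Rik genes more often had a single peak (above).

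**Figure D2:**
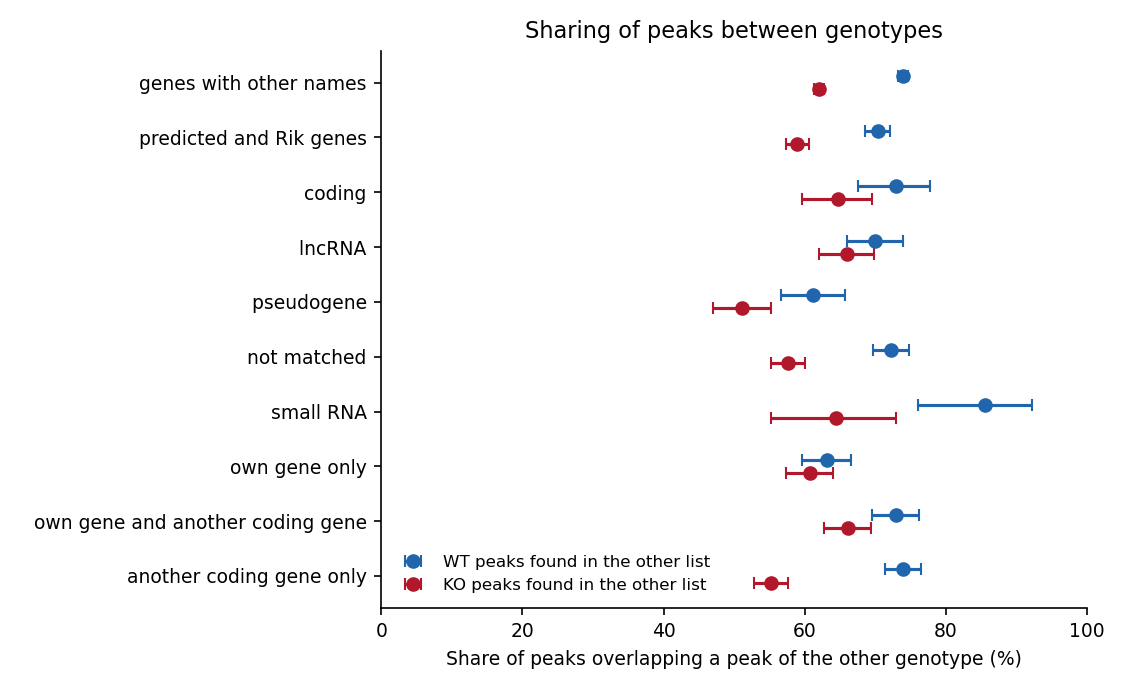
Share of WT peaks (blue) that overlap a KO peak and of KO peaks (red) that overlap a WT peak (horizontal axis, percent), for genes with other names, predicted and Rik genes, their RefSeq types and their position; bars are exact 95% binomial intervals. Pseudogenes have the lowest share in both lists, 61.3% in WT and 51.1% in KO.

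By type, pseudogenes had the lowest share in both lists, 61.3% of WT peaks and 51.1% of KO peaks, and the interval for WT, 56.7 to 65.7%, did not reach that of coding genes, 67.6 to 77.8%. Long noncoding RNAs stood at 70.0% and 66.0%, coding genes at 72.9% and 64.7% and unmatched names at 72.3% and 57.7%. Small RNA names had 85.5% of their 83 WT peaks and 64.5% of their 121 KO peaks shared. Position gave opposite orders in the 2 lists, as the plot of sharing by type and position shows: in WT 63.1% of the peaks in their own gene only were shared and 74.0% of those in another coding gene only, with intervals of 59.6 to 66.5% and 71.3 to 76.5%. In KO these were 60.8% and 55.2%, with intervals of 57.4 to 64.1% and 52.8 to 57.7% that overlap at their edge.

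**Figure D3:**
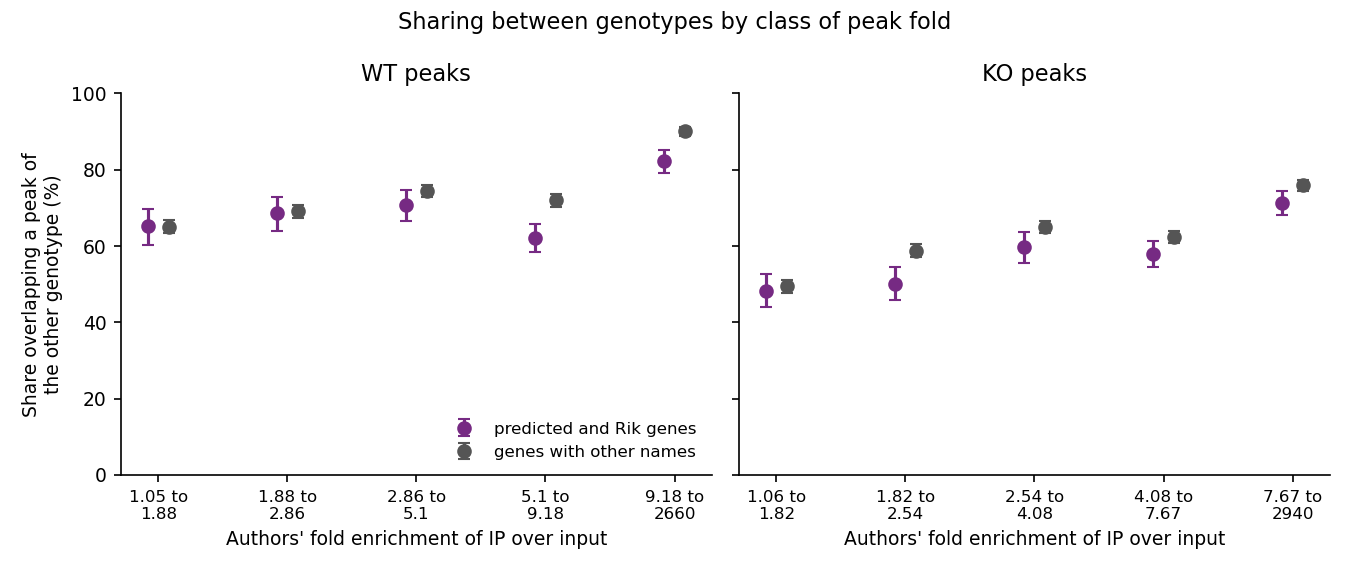
Share of peaks (vertical axis, percent) that overlap a peak of the other genotype, in 5 classes of equal size by the authors' fold within each list (horizontal axis; ties were split by rank), for predicted and Rik genes (purple) and genes with other names (grey); bars are exact 95% binomial intervals. The widest gap is in the fourth class of WT, 62.2% against 72.1%.

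Within classes of fold, the shares lay close to those of other names in the lowest class and below them in each higher class, as the plot of sharing by fold shows. In the lowest class of fold, 65.2% of WT peaks of these genes were shared and 65.1% of the others, and in KO 48.3% and 49.4%. In the fourth class, which holds the common fold of 7.14, the shares in WT were 62.2% (interval 58.3 to 65.9%) and 72.1% (interval 70.3 to 73.7%). In the highest class they were 82.3% and 90.1% in WT and 71.4% and 76.0% in KO. Among peaks with an FDR under 0.05 the gap was smaller, 83.6% against 86.1% in WT and 75.5% against 76.5% in KO.

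The next comparison concerned enrichment in KO against WT, from the authors' deposited table of differential peaks, all with a p under 0.05. Of the 826 peaks of predicted and Rik genes there, the authors' deposited table gave 588 (71.2%, interval 68.0 to 74.3%) as lower in KO, against 69.6% of all 6050 rows, and 238 as higher, against 30.4%. An FDR under 0.05 was reached by 661 of the 826 (80%), against 79.6% of all rows, and of these the authors' deposited table gave 479 as lower (72.5%), against 71.6% of all such rows. The authors' deposited table had a median log2 ratio (KO over WT) of -0.42 for these genes and -0.40 for other names. So the direction of these peaks was near that of the whole table, and it is counted against 0. Against the table's median of -0.40, 52.1% were lower.

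**Figure D4:**
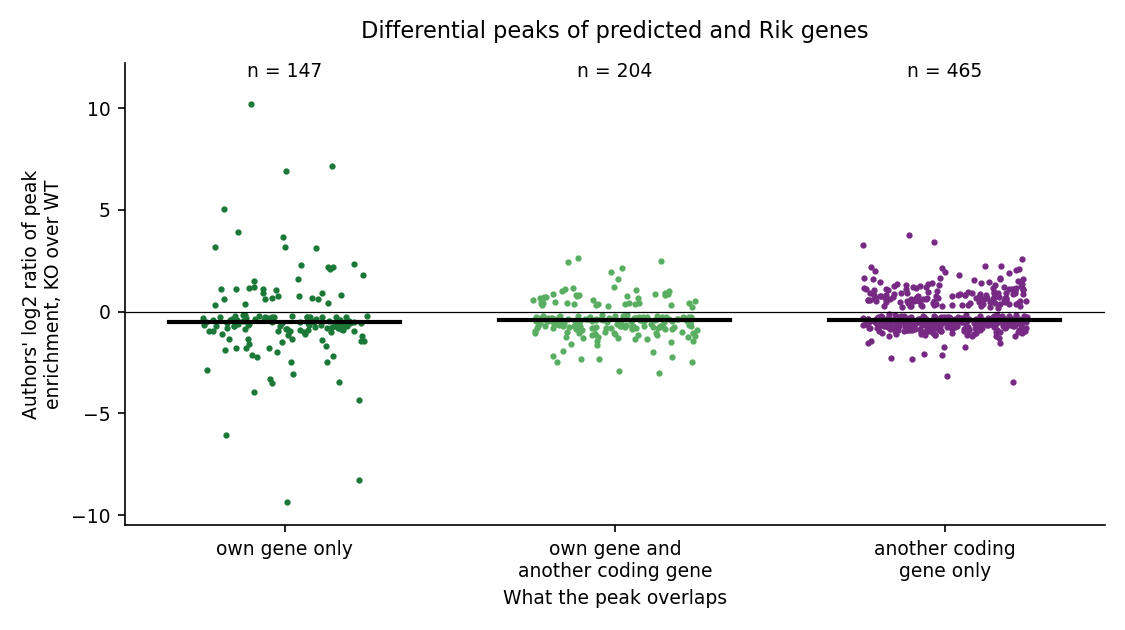
The authors' log2 ratio of peak enrichment in KO over WT (vertical axis) for each differential peak of predicted and Rik genes, by what the peak overlaps (horizontal axis); a point is 1 peak and a bar the median, and 10 peaks in neither are not drawn. Of the 24 peaks at 3 or more in absolute value, 18 lie in their own gene only.

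Large ratios were commoner among these genes. From the authors' deposited table, 24 of the 826 peaks (2.91%) had a log2 ratio of at least 3 in absolute value, against 1.06% of all rows and 40 of the 5224 rows with other names (0.766%). Of these, 12 were at most -3 in the authors' deposited table, or 1.45% of the 826, against 34 of all 6050 rows (0.562%). The other 12 were at least 3, also 1.45%, against 30 of all 6050 rows (0.496%). As the plot of differential peaks by position shows, 18 of the 24 lay in their own gene only, a class of 147 peaks, and 5 in the 465 peaks that lay in another coding gene only. Pseudogenes gave 9 of the 24. Pseudogene copies share sequence with their parent genes and with each other, so the authors' counting could have split or moved their reads, and each such value is uncertain.

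Both ends of the authors' deposited table were peaks of these genes. At the low end the pseudogene Gm6311 stood at -9.36, on chromosome 13 from 75954603 to 75955013. Its WT peak had a fold of 76.8 with a p of 1e-219, it had no KO peak at that place, and its input level was 13.6 FPKM in WT and 34.5 in KO. After it, among these genes at an FDR under 0.05, the authors' deposited table had the pseudogene Gm6741 at -8.25, with input levels of 0.0447 FPKM in WT and 1.76 in KO, the KRAB zinc finger gene Gm10778 at -6.04 (0.337 and 0.466 FPKM) and the long noncoding RNA Gm16287 at -4.32 (0.216 and 0.276 FPKM). Gm16567 at -3.46 in the authors' deposited table lay in an exon of C1ra, a protease of the complement pathway. Apart from Gm6311, no gene in this group with a listed level had as much as 2 FPKM in either input.

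At the high end the authors' deposited table gave 2210418O10Rik, a protein-coding gene on chromosome 2, ratios of 10.2 and 6.91 for a pair of peaks between 176239313 and 176239911. It had KO peaks with folds of 75.6 and 29.5, neither overlapped a WT peak, and its input level was 2.61 FPKM in WT and 1.09 in KO. The pseudogene Gm4202 at 5.06 (3.70 and 2.46 FPKM), the unmatched Gm2379 at 3.93 (0.581 FPKM in WT and listed at 0 in KO) and the unmatched Gm7292 at 3.65 (8.38 and 7.32 FPKM) followed in the authors' deposited table. Gm2059 at 3.78 in the authors' deposited table lay in Tom1, which codes for an endosomal sorting protein. The pseudogene Gm5854, with the highest input in this group (18.6 and 21.1 FPKM), stood at 3.16 in the authors' deposited table.

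By position, the authors' deposited table gave as lower 75.5% of the peaks in their own gene only (111 of 147), 77.9% of those in both (159 of 204, interval 71.6 to 83.4%) and 67.3% of those in another coding gene only (313 of 465, interval 62.8 to 71.6%). For other names the same classes of the authors' deposited table had 72.7%, 63.2% (interval 58.7 to 67.6%) and 55.2% (interval 51.4 to 58.9%), and in the last 2 classes the intervals of the 2 sets of names do not overlap. Of the 26 peaks annotated to a 5′ UTR, 25 were lower in the authors' deposited table, or 96.2% (interval 80.4 to 99.9%), and for other names 507 of 574 were, or 88.3% (interval 85.4 to 90.8%), so the intervals overlap. In a 3′ UTR the authors' deposited table had 67.3% of 538 lower, against 62.6% for other names, and in another exon 76.7% of 262 (interval 71.1 to 81.7%), against 88% (interval 85.5 to 90.1%). Rik names were lower in 79.1% of 172 peaks and Gm names in 69.1% of 654. An input level was listed in the authors' deposited table for 581 of the 826 peaks (70.3%), against 97.6% of those with other names: for all 147 in their own gene only, as for all such peaks with other names, and for 250 of the 465 (53.8%) in another coding gene only.

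Families with known roles were read from lists of names. The interferon-inducible GTPases act against intracellular pathogens in macrophages. Peaks under their own names were listed for 7 of 8 genes in WT (19 peaks, 18 shared) and for all 8 in KO (18 peaks, 16 shared). The gene with no WT peak under its own name was Gm4070. In its extent, with strand ignored, lay 6 WT peaks named Gm45684, with folds from 1.86 to 56.1, of which 2 were shared. The WT list thus had peaks in that extent under another name, and which gene carried them was not tested. Gm1966 alone had 8 peaks in WT, with folds from 3.40 to 33.7, and 7 in KO, from 3.54 to 15.3, all in its own gene and all shared. Gm12250, for which RefSeq gives the synonym Irgb10, had a single peak over the same bases in both lists, chromosome 11 from 58187738 to 58189012, with folds of 28.2 in WT and 26.8 in KO. Gm5431 was named for sites in the neighbouring Gm12185 as well as in itself, with its own peak at 16.2-fold in WT and 12.5-fold in KO. Of the 5 peaks of this family in the authors' deposited table, 4 were lower, the 3 of Gm8995 at -0.25, -0.22 and -0.15 and that of Gm5431 at -0.30, and that of Gm12185 was at 1.52 with an FDR above 0.05. That count is against 0, where 69.6% of all rows were lower, and 0 of the 5 lay below the median of -0.40 in the authors' deposited table, a comparison added after the values were seen. The genes of this family are close copies of each other, so the assignment of reads among them is uncertain.

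The KRAB zinc finger genes, transcription repressors that bind transposable elements and lie in clusters of near copies, had 33 peaks in 19 of 46 listed genes in WT and 33 in 18 genes in KO, 24 shared in each list. 2610008E11Rik had 5 peaks in WT, with folds from 3.64 to 7.14, all shared. A430033K04Rik had a peak of 39.8-fold in WT and its largest in KO at 15.3-fold, with an input of 0.526 FPKM in WT and 0.430 in KO. Their 7 rows in the authors' deposited table had 6 lower and a median log2 ratio of -1.48, against 69.6% lower and a median of -0.40 over all rows. Of the 7, 6 also lay below that median. These counts cover only the 46 listed names, and any gene of this kind outside that list was not counted. The coding gene 2210418O10Rik, which had the highest ratio in the authors' deposited table, is not on that list. Whether it is of this kind was not checked. Among the 7 rows Gm10778 stood at the low end and 2610008E11Rik at 1.09 at the high end. The highest input level among the 7 genes was 2.39 FPKM, that of 9130023H24Rik in KO. Signal-regulatory proteins, a family of cell-surface receptors, had 1 peak in each list, in Gm5150 among 3 listed genes, with folds of 5.10 and 2.82. Sp140 relatives, nuclear body proteins, had 1 peak in WT and 3 in KO, none shared.

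Other names with many peaks were long noncoding or little-studied coding genes. Gm10419, a long noncoding RNA on chromosome 5, had 6 peaks in each list, with folds from 1.87 to 11 in WT and from 2.83 to 17.1 in KO, and 4 of the WT and 5 of the KO peaks were shared. 5031425E22Rik, a long noncoding RNA that starts beside Kmt2e, a gene for a chromatin reader, had 6 peaks in WT, up to 14.1-fold, with an input of 1.58 FPKM in WT and 1.88 in KO. The coding gene 9930021J03Rik had 6 WT peaks, from 2.04-fold to 5.65-fold, of which 5 were shared. The coding gene 4933427D14Rik also had 6 in WT, from 2.48-fold to 7.14-fold, of which 2 were shared.

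The last comparison concerned input levels, which the authors' table lists for genes with a differential peak. In bulk RNA fewer cells of a type and less RNA per cell cannot be told apart. Levels were listed for 477 predicted and Rik genes, with a median of 0.251 FPKM in WT and 0.309 in KO, against 5.88 and 6.30 over all 4403 genes listed. The 153 with a mean of at least 1 FPKM had a median difference of 0.08 in log2(FPKM + 1), KO minus WT (order-statistic interval 0.01 to 0.13), and all 3679 such genes one of 0.07. This scale understates the change of low genes. Of the 153, 5 were higher in KO by at least 1, and of all 3679 such genes 11 were (0.299%). By at least 1 lower were 3 of the 153, and 9 of the 3679 (0.245%). That made 8 of the 153 in all, and with a pseudocount of 0.1 in place of 1 the total was 13. The authors' adjusted p for the input difference was under 0.05 for 0 of them, and for 0 of all genes listed.

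**Figure D5:**
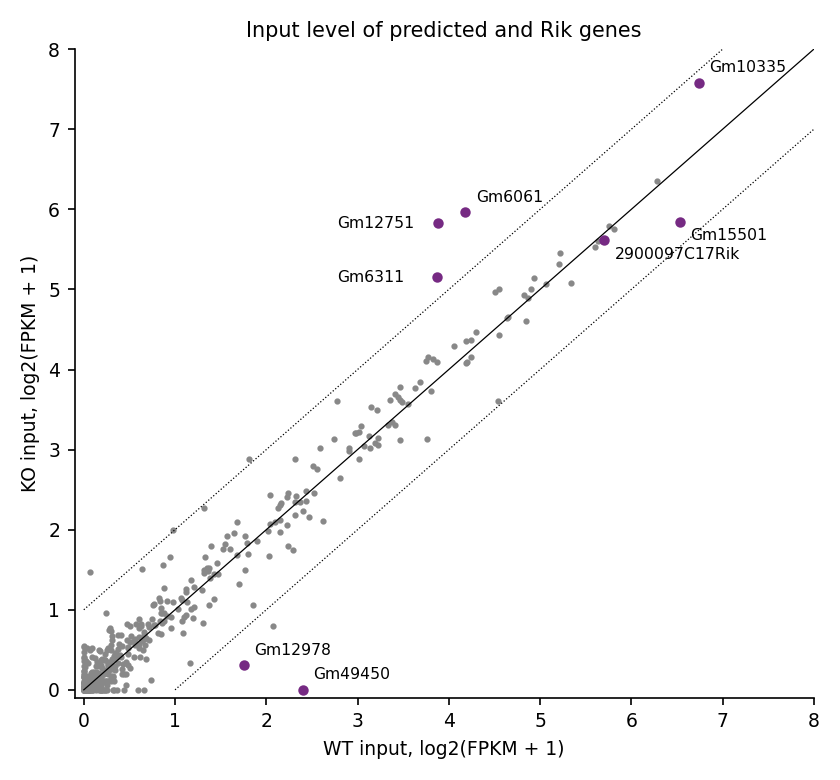
Input level of the 477 predicted and Rik genes listed, log2(FPKM + 1) in WT (horizontal axis) and KO (vertical axis); a point is 1 gene, the solid line marks equal levels, the dotted lines a difference of 1, and purple points are named. Gm12751, Gm6061 and Gm6311 lie above the upper dotted line, and Gm12978 and Gm49450 below the lower one.

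All 5 that were higher were pseudogenes: Gm12751 at 13.7 FPKM in WT and 55.7 in KO, Gm6061 at 17.2 and 61.4, Gm6311 at 13.6 and 34.5, Gm11427 at 2.50 and 6.40, and Gm11400 at 0.965 and 3.00. Every differential peak of these 5 was lower by the authors' deposited table, from -9.36 in Gm6311 over -2.18 in Gm12751 and -2.33 in Gm6061 to -0.81 in Gm11427. Over all rows 69.6% were lower. The ratio in that table divides IP by input, so the input level enters it, and the part of input in these ratios was not tested. The largest falls were Gm49450 (4.27 FPKM in WT, listed at 0 in KO), Gm12978 (2.38 and 0.235), Gm49322 (3.22 and 0.736), Gm24270 (22.3 and 11.2) and 2210418O10Rik (2.61 and 1.09). Their peaks in the authors' deposited table were at 0.67 in Gm49450, -0.15 in Gm12978, -0.73 and -0.72 in Gm49322, -0.32 in Gm24270, and 10.2 and 6.91 in 2210418O10Rik. Of these 7 only the 2 of Gm49322 lay below the median of -0.40 in the authors' deposited table. Against 0, as counted for the 5 rises, the peaks of Gm12978, Gm49322 and Gm24270 were lower. Those of Gm49450 and 2210418O10Rik were higher. Gm49450 lay in Tuba1a, an alpha-tubulin gene, and Gm12978 in part in Srsf4, a splicing factor gene, so the levels of overlapping genes are uncertain.

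The highest levels were those of Gm10335, a pseudogene inside Adgrg6 (106 FPKM in WT and 191 in KO), and of the coding gene Gm15501 (91.4 and 56.6). The pseudogene Gm10443 (76.6 and 80.8) and the long noncoding RNA 2410006H16Rik (55.2 and 53.0) followed, and 2900097C17Rik, the RNA at the place of Norad, was at 51.1 and 48.0. The peaks of Gm10443 were weak, 1.11-fold in WT and 1.66-fold in KO, and those of Gm15501 were 1.22-fold and 1.23-fold in WT and 3.70-fold and 3.65-fold in KO. The authors' deposited table had the differential peaks of Gm15501 above 0, at 1.12 to 2.33. Those of 2900097C17Rik were at -0.48 and -0.37 over its strong peaks and at 1.79 at its other end, on chromosome 2 from 156388064 to 156388455, in the authors' deposited table.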

How the data were processed

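Processed files of 4 libraries were used, grouped by title. Tools in the submitters' processing notes, with no role given, are edgeR, StringTie, ChIPseeker, HOMER, HISAT2 and fastp, and the build is mm10. The peak caller was not named there. Per genotype, the authors deposited 1 peak list, called on 1 library pair and not pooled, with a fold (a ratio of IP over input), a p-value of at most 0.05 and the log10 of a false discovery rate, per the file headers. A further deposited table gives enrichment in KO over WT as a log2 ratio, and the input level in FPKM with the authors' p-value for it.

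Here peaks were selected by name and overlapped on exonic blocks, with at least 1 base and strand ignored, with pandas 2.3.3, numpy 2.4.6 and scipy 1.17.1 in Python 3.11.15, and drawn with matplotlib 3.10.9. The overlap code was tested on simulated peaks with known answers. Gene types and extents came from RefSeq (GRCm38.p6). Overlap with coding exons and motif counts over whole peaks had been planned, but no exon coordinates or genome were used here, so extents and transcript starts stand in their place. The definition of a peak's own gene was widened, after the data were seen, from the assigned transcript to the union given in the report. Shares have exact (Clopper-Pearson) intervals. Input differences used a pseudocount of 1 FPKM. Genes were named by rule: the 8 lowest p per list, the 5 genes with most peaks and their ties, the 8 lowest and 8 highest differential ratios at an FDR under 0.05, the 8 highest input levels and the 5 largest rises and falls, the 5 lowest p in another coding gene, and the family lists. Examples beyond these, such as the hosts with most peaks, Neat1, Tug1, Xist, D630008O14Rik and the microRNA hairpins, were chosen after their values were seen. The members and lists were chosen with earlier results of these data known.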

Additional observations from a re-analysis of the deposited data

How the results depend on the processing

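No paired analysis was possible because each genotype had 1 library of each kind, and for the same reason no library could be left out. Of the recomputed values, 20 stayed within the limits of the reported one and 27 moved. Requiring a fold of at least 4 left 1528 peaks in 1233 genes in WT and 1698 in 1354 in KO, with 40.6% and 42.8% in a 3′ UTR, 33.8% and 35.7% in another coding gene only, and 72.6% and 65.0% shared. Requiring a p of at most 1e-10 left 689 peaks in 593 genes and 698 in 597, with 64.3% and 69.6% in a 3′ UTR, 51.5% and 55.7% in another coding gene only, and 98.1% and 94.1% shared. These settings pulled the 3′ UTR and coding gene shares in opposite directions, and the cause was not tested. When a shared pair had to overlap over at least 50% of each peak, a stricter rule by construction, sharing was 49.3% in WT and 39.8% in KO. Against the table's median, 52.1% of differential peaks were lower in KO. The median input difference was 0.00504 after the median of all genes was taken off, and with a pseudocount of 0.1 a total of 13 genes passed 1, in place of 8. GGAC, a shorter motif, was in 17% of WT and 20.3% of KO starts. It was also in 18.9% of all promoters and 16.5% of those of predicted and Rik genes, so these shares lay near the background. Counting repeated rows once, or leaving out Gm38182, both chosen after seeing the data, kept every value within its limits. Against the table's median, also added after seeing the data, 0 of 5 peaks of interferon-inducible GTPases and 6 of 7 of KRAB zinc finger genes were lower, in place of 4 and 6. Overlap with coding exons was not run. Library depth is unknown, so what it limits was not tested.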
